A study of Mus musculus with 96 samples.

Results

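The genes described here were the mouse collagen chain genes, taken as the rows of the gene table whose symbol has the form Col, a number, a and a number. This rule gave 44 of 54150 rows. Of these 44 genes, 26 reached 16 counts in all replicates of one condition or more, and 15 did so in all 35 conditions. The other 18 never reached that level, and 14 of those had fewer than 16 counts in each of the 96 samples. By class, 8 of 11 fibrillar genes, 3 of 6 basement membrane network genes, 3 of 6 beaded filament genes and 4 of 4 transmembrane genes passed in at least one condition. In the other classes the genes that passed were 4 of 9 FACIT genes (fibril-associated collagens with interrupted triple helices), 2 of 3 hexagonal network genes, 1 of 2 multiplexins and 1 of 2 anchoring genes.

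Collagens are secreted or membrane-bound proteins in which chains wind into a triple helix. Types I, III and V form fibrils, type IV forms the sheet of basement membranes, and type VI forms beaded filaments that link muscle fibers to their surroundings. Before secretion, prolyl and lysyl residues are hydroxylated by enzymes that need oxygen, and after secretion lysyl oxidases crosslink the fibrils.

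Expression was measured by RNA-seq in C2C12 cells, a mouse myoblast line that exits the cell cycle and forms myotubes in low serum, to ask how inhibition of mitochondrial respiration is sensed in different cell states. The 45 myoblast samples were proliferating cells in 10% dialyzed fetal bovine serum, stably transduced by lentivirus and kept in 300 ng/ml doxycycline, which switched on luciferase (called control), LbNOX, mitoLbNOX or NDI1. LbNOX and mitoLbNOX are a bacterial NADH oxidase placed in the cytosol or the mitochondria, and NDI1 is the yeast NADH dehydrogenase, which is not blocked by piericidin. The 9 post-mitotic samples and the 42 myotube samples had spent 1 or 4 days in 2% dialyzed horse serum, and 15 of the myotube samples carried GFP or LbNOX delivered by adenovirus. The post-mitotic cells and the remaining 27 myotube samples were not transduced. Treatments lasted 10 hr and were DMSO, 0.5 µM piericidin (complex I), 0.5 µM antimycin (complex III), 1 µM oligomycin (ATP synthase), or in myotubes the uncoupler BAM15 at 0.5 µM. In myotubes oligomycin was also combined with piericidin or with BAM15 at these doses. Other myotubes were moved to 5% oxygen on the evening before and stayed there through the treatment with DMSO or oligomycin. Chloramphenicol, which blocks mitochondrial translation, was given to myoblasts at 20 µg/ml for 48 hr with uridine added, and the wells of that experiment were seeded with 2000 cells in place of the 20000 of the other myoblasts. There were 3 replicates in 26 conditions and 2 in 9, and since the labels do not say whether these were separate cultures on separate days, p-values measure only the spread between these samples.

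Libraries held 6458295 to 15366745 counts, with a median of 10336588.5. Each transgene was counted in the lines that carry it and at 0 in all untransduced samples. Summed over 9 myotube markers, the DMSO libraries held 17.2 to 21.1 CPM (counts per 1000000, with TMM scaling over all 96 samples) in control myoblasts, 11171 to 11738 after 1 day in low serum and 13008 to 13646 in myotubes. Over 5 proliferation markers the order was the opposite, at 1363 to 1389, 238 to 266 and 136 to 170.2 CPM. Over 6 fibroblast markers the libraries held 90.5 to 101 CPM in control myoblasts and 293 to 319 CPM after 1 day, with 1 marker at 0 in each, and 181 to 205 CPM in myotubes with 0 markers at 0, and their part in the differences between states was not tested. Since these were bulk samples, fewer cells that express a gene and less RNA per cell cannot be told apart.

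The sample labels carry a code of a letter and a number, in the form of a 96-well plate position, and this code moved with several collagens. In the 18 conditions that had samples at both outer and inner positions, each sample was taken as its deviation from its condition mean. The mean deviation of the outer samples minus that of the inner samples was -1.15 for Col16a1, -0.75 for Col4a2, -0.63 for Col5a1 and -0.36 for Col5a3 (22 outer and 28 inner samples, log2(CPM + 1)). For Col3a1, Col1a2, Col1a1, Col5a2, Col4a1 and Col6a1 the same difference was at most 0.0487 in size. The ratio of Col4a2 to Col4a1, which encode the 2 chains of the same type IV trimer, ran from 0.687 to 1.38 in the 60 inner samples, from 0.288 to 0.834 in the 32 outer samples away from the corners and from 0.180 to 0.262 in the 4 corner samples. Thus only the highest outer values reached into the inner range. All 3 control DMSO myoblast samples and all 9 post-mitotic samples were outer, and all 3 untransduced DMSO myotube samples were inner. Changes with cell state or inhibitor in Col4a2, Col5a1, Col5a3, Col6a2 and Col16a1 are therefore given below, where the compared samples differed in position, also with the position as a covariate or without the 4 corner samples.

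**Figure D1:**
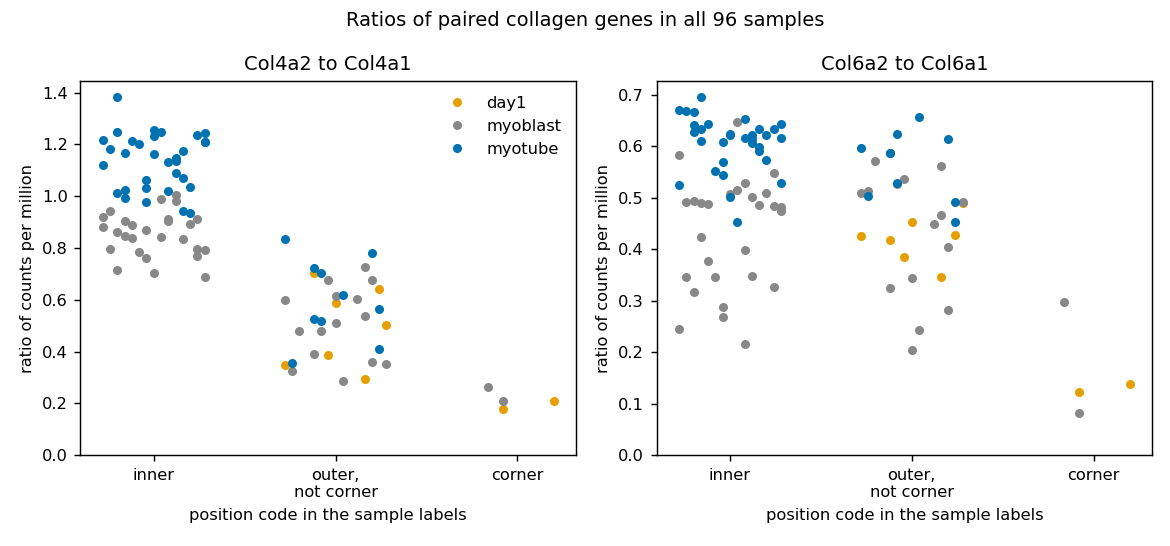
Ratio of CPM of Col4a2 to Col4a1 (left) and of Col6a2 to Col6a1 (right) in each of the 96 samples, by whether the position code is inner, outer or a corner. Each point is a sample, colored by cell state. In the left panel the 4 corner samples sit between 0.180 and 0.262, under every inner sample.

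Collagens made up 0.349% ± 0.00380 of all counts in control DMSO myoblasts, 0.730% ± 0.0175 after 1 day in low serum and 0.794% ± 0.0286 in myotubes (SD, n = 3 each). Per kilobase of transcript, Col5a2 had the highest level of all collagens in control DMSO myoblasts, at 219 ± 4.55 CPM per kb, followed by Col3a1 at 143 ± 2.67 and Col1a2 at 61.8 ± 2.68 (SD, n = 3). These 3 levels did not overlap between genes. In myotubes the first place was held by Col3a1 at 754 ± 19.3 CPM per kb, followed by Col5a2 at 147 ± 1.84, Col1a2 at 127 ± 3.12 and Col6a1 at 101 ± 2.89. In both states Col4a1 and Col4a2 lay far below the leading fibrillar genes, at 30.7 ± 0.746 and 13.3 ± 7.05 CPM per kb in myoblasts and 16.6 ± 1.94 and 20.8 ± 0.328 in myotubes. The order of Col4a1 and Col4a2 thus turned between states. The myoblast samples were at outer positions and the myotube samples at inner ones.

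When proliferating myoblasts became post-mitotic cells, Col3a1, Col1a2, Col1a1, Col5a3, Col6a1 and Col6a2 rose, while Col5a2, Col6a3 and Col4a1 fell. Of the 23 collagens tested, 11 were higher and 6 lower after 1 day in low serum, where 63.6% of all genes were called (31.3% higher and 32.3% lower). In myotubes against myoblasts 16 were higher and 4 lower, where 69.4% of all genes were called (35.7% higher and 33.7% lower). Between day 1 and myotubes 12 were higher and 1 lower, where 35.6% were called (19.6% higher and 16% lower). The median log2 fold change of the tested collagens was 1.36 in myotubes against myoblasts, beside 0.04 over all genes. The tested genes are those that passed the count filter in at least one condition, so a gene that passed only where it was high had to differ. This fixed the direction of Col8a2, Col11a1, Col13a1, Col23a1 and Col25a1, which passed in low serum alone, and of Col2a1, which passed in myoblasts alone. The other 17 gave 9 higher and 5 lower after 1 day, 11 and 3 in myotubes against myoblasts (median 1.28), and 9 and 1 between day 1 and myotubes. Of these 17, Col7a1 did not reach the filter in the post-mitotic DMSO samples, so the filter favored its direction in the comparisons with day 1. Myoblasts also differed from both other states in transduction, doxycycline, serum and seeding, and there cell state and these conditions cannot be told apart. The day 1 and myotube samples shared these conditions but differed in position code. These comparisons share samples.

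Col3a1, the chain of type III collagen of pliable tissue, had 804, 777 and 800.3 CPM in the 3 control DMSO myoblast samples, 3930.0, 3876 and 3809.7 after 1 day and 4094, 4308 and 4180.1 in myotubes. The first step was far larger than the spread (log2 fold change 2.25 ± 0.05, adjusted p = 5.97e-26, where ± after a log2 fold change is its standard error throughout). The second was small (log2 fold change 0.16 ± 0.04, adjusted p = 0.00512), and that call was lost without the corner samples (log2 fold change 0.11, adjusted p = 0.0611), under scaling by total counts alone (0.03, adjusted p = 0.66) and without the samples numbered 2 or 3 (adjusted p = 0.388 and 0.2). Col1a2, a chain of type I collagen, had 320.0, 324 and 347 CPM in myoblasts, 688, 672 and 651 after 1 day and 663, 676 and 696 in myotubes. It rose by day 1 (log2 fold change 0.98 ± 0.04, adjusted p = 1.51e-17), and its day 1 and myotube values overlapped. Its partner Col1a1, the other type I chain, rose in 2 steps, with 64.7, 67.9 and 65.1 CPM in myoblasts, 124, 108 and 111 after 1 day and 286, 312 and 349.5 in myotubes. The 3 groups did not overlap, and the log2 fold changes were 0.76 ± 0.09 for the first step (adjusted p = 2.83e-08) and 1.51 ± 0.09 for the second (adjusted p = 6.15e-14). In these samples the 2 chains of one protein thus had different time courses.

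Col5a2, a chain of the type V collagen found inside type I fibrils, fell where its genomic neighbor Col3a1 rose. The 2 genes lie on chromosome 1 on opposite strands, 24614 bases apart (GRCm38, Col3a1 at chr1:45311538-45349706 and Col5a2 at chr1:45374321-45503282). Col5a2 had 1425, 1445 and 1485 CPM in control myoblasts, 988, 916 and 913 after 1 day and 962, 967 and 985 in myotubes (log2 fold change -0.57 ± 0.04, adjusted p = 3.04e-13 for myotubes against myoblasts). All myoblast values were above all others. The other type V chains rose. Col5a1 had 62.1, 86.8 and 66.4 CPM in myoblasts, 83.8, 104 and 94.2 after 1 day and 306, 345 and 331 in myotubes (log2 fold change 2.19 ± 0.24, adjusted p = 2.77e-09 for myotubes against myoblasts). With the position as a covariate the log2 fold change of Col5a1 was 1.62 (adjusted p = 3.51e-07). Col5a3 had 3.004, 9.42 and 7.79 CPM in myoblasts, 39.8, 52.2 and 43.6 after 1 day and 89.9, 100.3 and 109 in myotubes without overlap (log2 fold change 3.86 ± 0.33, adjusted p = 1.64e-11), and gave 3.55 with the position as a covariate (adjusted p = 2.71e-09). Between day 1 and myotubes the call for Col5a3 was lost with that covariate (log2 fold change from 1.19 ± 0.27 to 0.87, adjusted p = 0.0569).

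The type VI chains diverged as well. Col6a1 had 38.0, 36.8 and 34.9 CPM in control myoblasts, 395, 408 and 385 after 1 day and 419, 424 and 402 in myotubes. It rose before day 1 (log2 fold change 3.40 ± 0.09, adjusted p = 9.52e-24), after which the groups overlapped. Col6a2, on the same strand of chromosome 10 as Col6a1 and 85161 bases from it, had 3.09, 10.4 and 11.4 CPM in myoblasts, 169, 184 and 189 after 1 day and 263, 277 and 268 in myotubes (log2 fold change 5.01 ± 0.39, adjusted p = 2.11e-12). The lowest of its myoblast values came from a corner position, and without the corner samples the log2 fold change was 4.64 (adjusted p = 1.99e-19). For Col6a2 the control line was the lowest of the myoblast lines. Its DMSO samples held 34, 150 and 124 counts, against 373, 516 and 328 in LbNOX, 352, 420 and 278 in mitoLbNOX and 681 and 361 in NDI1. States were compared with the control line alone, so the size of this rise rests on that line. The third chain, Col6a3, fell instead, from 67.7, 65.9 and 75.4 CPM in myoblasts to 31.4, 23.3 and 27.6 after 1 day and 38.9, 34.6 and 39.7 in myotubes (log2 fold change -0.88 ± 0.11, adjusted p = 7.44e-08). All its myoblast values were above all others.

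Among basement membrane chains, Col4a1 fell at each step, from 206, 198 and 206 CPM in myoblasts to 167, 165 and 161 after 1 day and 95.6, 121 and 113 in myotubes (log2 fold change -0.88 ± 0.07, adjusted p = 9.51e-12). The 3 groups did not overlap. Col4a2, which lies head to head with Col4a1 on chromosome 8 with 22 shared bases at the starts, had 43.3, 134 and 80.9 CPM in myoblasts, 58.2, 96.7 and 81.2 after 1 day and 132, 137 and 134 in myotubes and did not pass the test (log2 fold change 0.64 ± 0.40, adjusted p = 0.157). With the position as a covariate this value was 0.04 (adjusted p = 0.944). Col8a1, a network-forming collagen of vessel walls, rose through both steps, with 33.4, 28.0 and 29.9 CPM in myoblasts, 42.0, 39.8 and 37.003 after 1 day and 74.8, 78.3 and 79.7 in myotubes (log2 fold change 1.36 ± 0.10, adjusted p = 9.62e-13).

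Col12a1 and Col16a1 are FACIT collagens of the fibril surface. Col12a1 had 43.5, 40.6 and 37.7 CPM in myoblasts, 113, 113 and 99.9 after 1 day and 102, 93.7 and 99.5 in myotubes (log2 fold change 1.38 ± 0.11, adjusted p = 5.85e-12 for day 1 against myoblasts). It rose in the first step, after which the groups overlapped. Col16a1, which varied most with the position code, was called higher in myotubes than in myoblasts (2.03 ± 0.56, adjusted p = 0.00215), and this was lost with the position as a covariate (0.84, adjusted p = 0.218). The call of Col4a5, a basement membrane chain, was lost in the same way (from 0.92 ± 0.24 to 0.60, adjusted p = 0.084). Col7a1 had 3.19, 4.57 and 3.48 CPM in myoblasts, 0.282, 0.552 and 0.234 after 1 day and 2.38, 1.64 and 2.75 in myotubes. The post-mitotic cells alone were low, with no overlap with either other group (log2 fold change -3.41 ± 0.45, adjusted p = 1.33e-07 for day 1 against myoblasts, 2.68 ± 0.47 for myotubes against day 1). Col8a2 had 1.64, 1.45 and 0.642 CPM in myoblasts and rose to 9.41, 11.5 and 10.3 after 1 day (log2 fold change 2.998 ± 0.34, adjusted p = 8.02e-09).

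Among transmembrane collagens, Col13a1, Col25a1 and Col23a1 were found mainly in myotubes. Col13a1, a muscle-anchored collagen of the neuromuscular junction, had no count in the control DMSO myoblasts, at most 0.156 CPM after 1 day and 7.03, 6.58 and 8.54 CPM in myotubes. Against a floor of 3 counts per myoblast library this is at least 26.9-fold higher. Col25a1, another transmembrane collagen known from muscle innervation, had 0.364, 0 and 0 CPM in myoblasts, 0.0941, 0.276 and 0.781 after 1 day and 11.7, 18.1 and 15.5 in myotubes (adjusted p = 2.27e-10 for myotubes against day 1). Col23a1 had 6.21, 5.39 and 7.88 CPM in myotubes and under 0.4 CPM in every sample of both other groups (adjusted p = 2.97e-08 against day 1). For all 3, the filter was passed in myotube conditions alone, so the direction of these calls was fixed by the filter. In the other direction, Col2a1, the cartilage collagen, had 0.637, 0.277 and 1.19 CPM in control myoblasts and no count in the other 2 groups, and it passed the filter in myoblast conditions alone. The difference against a floor of 3 counts per library is at least 2.26-fold lower in myotubes.

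**Figure D2:**
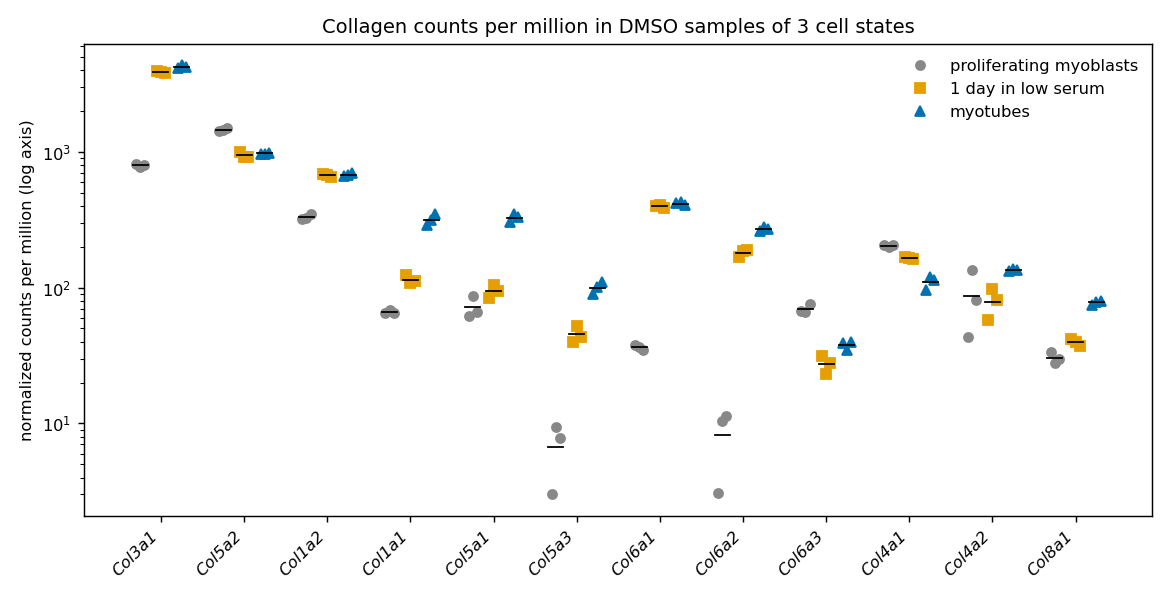
Normalized CPM (log axis) of 12 collagens in the DMSO samples of control myoblasts, post-mitotic cells after 1 day in low serum and untransduced myotubes. Points are samples (n = 3 per state) and bars are means. The Col3a1 points rise from 777 to 804 in myoblasts to 4094 to 4308 in myotubes, and the Col5a2, Col6a3 and Col4a1 points of the myotubes lie under those of the myoblasts.

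Most of the tested genes that process collagen were higher in myotubes as well. Of 61 listed genes 49 were tested, and in myotubes against myoblasts 35 were higher and 10 lower, where 35.7% of all genes were called higher and 33.7% lower. Their median log2 fold change was 0.97. Of the 35, 5 (Dcn, Lum, Fmod, Itga1 and Itga10) passed the count filter in low serum alone, which fixed their direction, and the other 44 tested genes gave 30 higher and 10 lower (median 0.85). The 4 fibril partners that passed in both media rose, which were the matricellular genes Postn (7.10 ± 0.17) and Sparc (1.45 ± 0.04), the adhesive glycoprotein Fn1 (1.73 ± 0.10) and the small proteoglycan Bgn (1.52 ± 0.03, all log2 fold changes). All 5 tested genes of collagen degradation and its inhibitors rose, among them the gelatinase Mmp2 (3.21 ± 0.26). The prolyl 4-hydroxylase subunits P4ha1 and P4ha2 rose (log2 fold changes 1.59 ± 0.06 and 0.95 ± 0.09), while P4hb, the subunit of highest mean CPM, fell and P4ha3 was not called. The collagen chaperone Fkbp10 fell (-0.67 ± 0.05), while the folding chaperones Fkbp7 and Fkbp14 rose. Serpinh1, the collagen-specific chaperone HSP47, had a log2 fold change of 0.14 ± 0.08 (adjusted p = 0.108).

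In control myoblasts Col3a1 and Col1a2 fell and Col4a1, Col4a2, Col5a1 and Col5a3 rose with each of the 3 inhibitors. With piericidin, 6 of 19 tested collagens were higher and 9 lower, where 61.7% of all genes were called (30.9% higher and 30.8% lower). With antimycin 9 were higher and 3 lower, where 63.2% of all genes were called (32.1% higher and 31.1% lower). With oligomycin 6 were higher and 5 lower, where 50.8% were called (24.5% higher and 26.3% lower). The median log2 fold change of the tested collagens was -0.09, 0.31 and -0.02 for piericidin, antimycin and oligomycin, and over all genes it lay between -0.01 and 0.00. The 3 comparisons share their DMSO samples. Scaling by total counts alone moved the median of all genes to -0.24, -0.30 and -0.15, and the split for antimycin then became 5 higher and 6 lower. The collagen share of all counts was 0.276% ± 0.00761 with piericidin, 0.312% ± 0.00610 with antimycin and 0.313% ± 0.00984 with oligomycin, all below the 0.349% ± 0.00380 with DMSO (SD, n = 3).

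Col3a1 had 495, 518 and 478 CPM with piericidin, 634, 674 and 631 with antimycin and 596, 583 and 541 with oligomycin, all below the 3 DMSO values given above. The log2 fold changes were -0.66 ± 0.04, -0.27 ± 0.04 and -0.47 ± 0.04 (adjusted p = 2.76e-14, 2.88e-06 and 8.97e-11). Col1a2 showed the same order, with 192, 190.0 and 179 CPM with piericidin, 247, 231 and 239 with antimycin and 233, 235 and 219 with oligomycin. Its log2 fold changes were -0.80 ± 0.05, -0.43 ± 0.05 and -0.53 ± 0.05 (adjusted p = 1.12e-14, 7.37e-09 and 2.21e-10). Its partner chain Col1a1 fell with piericidin, at 56.2, 46.6 and 53.5 CPM (log2 fold change -0.32 ± 0.10, adjusted p = 0.00426), a call lost without the samples numbered 2 (-0.26, adjusted p = 0.0753). With antimycin and oligomycin Col1a1 had log2 fold changes of 0.08 ± 0.09 and -0.02 ± 0.09 (adjusted p = 0.488 and 0.911).

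Col8a1 had 13.1, 13.0 and 12.6 CPM with piericidin (log2 fold change -1.22 ± 0.11, adjusted p = 1.16e-10) and 15.1, 18.9 and 12.9 with oligomycin (log2 fold change -0.95 ± 0.11, adjusted p = 1.51e-08), below every DMSO sample. With antimycin its values of 25.3, 23.7 and 30.6 CPM overlapped those of DMSO (log2 fold change -0.17 ± 0.11, adjusted p = 0.178). Col6a1 split the inhibitors further. It had 16.5, 24.9 and 21.2 CPM with piericidin (log2 fold change -0.79 ± 0.11, adjusted p = 3.29e-07) and 22.7, 19.4 and 19.6 with oligomycin (log2 fold change -0.83 ± 0.11, adjusted p = 1.70e-07). With antimycin it had 44.3, 45.5 and 39.6 (log2 fold change 0.27 ± 0.10, adjusted p = 0.0263), and this direction turned under scaling by total counts alone (-0.03, adjusted p = 0.831), while the call was lost without the samples of any 1 replicate number (adjusted p = 0.0898, 0.197 and 0.117). Lower-level genes that fell with piericidin were Col8a2 (-1.88 ± 0.64), Col7a1 of anchoring fibrils (-0.90 ± 0.33) and Col4a5 (-0.70 ± 0.29, log2 fold changes), and none of the 3 calls held without the samples numbered 1 (adjusted p = 0.0553, 0.0689 and 0.0719) or 2 (adjusted p = 0.164, 0.253 and 0.354).

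Against these, Col4a1 rose with every inhibitor. It had 298, 299 and 273 CPM with piericidin, 437, 407 and 399 with antimycin and 296, 269 and 271 with oligomycin, with no value down to the DMSO range. The log2 fold changes were 0.53 ± 0.06, 1.06 ± 0.06 and 0.46 ± 0.06 (adjusted p = 4.23e-09, 7.14e-16 and 1.18e-07). Col12a1, a FACIT that coats fibrils, rose most with antimycin, from 43.5, 40.6 and 37.7 to 94.2, 91.9 and 80.5 CPM (log2 fold change 1.16 ± 0.10, adjusted p = 1.10e-11). It had a log2 fold change of -0.08 ± 0.10 with oligomycin (adjusted p = 0.522), and its small call with piericidin (0.24 ± 0.10, adjusted p = 0.033) was lost under scaling by total counts alone (0.01, adjusted p = 0.943) and without the samples numbered 2 or 3 (adjusted p = 0.391 and 0.431). Col5a2, the collagen of the highest level per kb in these cells, had 1301, 1298 and 1238 CPM with antimycin against 1425, 1445 and 1485 with DMSO, without overlap (log2 fold change -0.15 ± 0.04, adjusted p = 0.00313). With piericidin it had 1342, 1385 and 1321 CPM and with oligomycin 1521, 1456 and 1363 (log2 fold changes -0.09 ± 0.04 and -0.01 ± 0.04, adjusted p = 0.0768 and 0.909). Col2a1 was called higher with piericidin, at 1.24, 3.40 and 5.15 CPM (log2 fold change 2.27 ± 0.52, adjusted p = 4.22e-04), where its DMSO values are those given above. These values rest on few counts, 11, 31 and 49 with piericidin and 7, 4 and 13 with DMSO. Neither group passed the count filter, so the size of this rise is uncertain. The oligomycin call of Col2a1 was lost without the samples numbered 1 or 2 (adjusted p = 0.0516 and 0.116).

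Col4a2, Col5a1 and Col5a3 were also called higher with all 3 inhibitors, but here the DMSO samples were all outer and most treated samples inner. Col4a2 had 249.7, 161 and 247 CPM with piericidin, 334, 313 and 313 with antimycin and 182, 185 and 237 with oligomycin (log2 fold changes 1.36 ± 0.38, 1.92 ± 0.39 and 1.21 ± 0.38, adjusted p = 0.00301, 8.52e-05 and 0.00904). With the position as a covariate these became 0.86, 1.21 and 0.75 (adjusted p = 0.0179, 0.00218 and 0.0412). Without the samples numbered 3, the calls with piericidin and oligomycin were lost (adjusted p = 0.0745 and 0.144). Col5a1 had 185, 112 and 217 CPM with piericidin, 159, 124 and 195 with antimycin and 128, 128 and 201 with oligomycin, all above the DMSO samples (log2 fold changes 1.27 ± 0.30, 1.18 ± 0.30 and 1.08 ± 0.29), and with the covariate 0.77, 0.49 and 0.61 (adjusted p = 7.07e-04, 0.0326 and 0.00616). Its oligomycin call was lost without the samples numbered 3 (0.76, adjusted p = 0.0779). Col5a3 had 12.8 to 22.3 CPM over the 9 treated samples, all above the DMSO samples, with log2 fold changes of 1.29 ± 0.29, 1.41 ± 0.29 and 1.51 ± 0.29, and with the covariate 1.02, 1.02 and 1.23 (adjusted p = 0.00176, 0.00312 and 2.98e-04). Thus the directions held and the sizes shrank. Col6a2 was called higher with antimycin (0.71 ± 0.28, adjusted p = 0.0262), and this call was lost with the covariate (0.69, adjusted p = 0.0551), without the corner samples (0.34, adjusted p = 0.152) and without the samples of any 1 replicate number (adjusted p = 0.0972, 0.0629 and 0.0509).

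**Figure D3:**
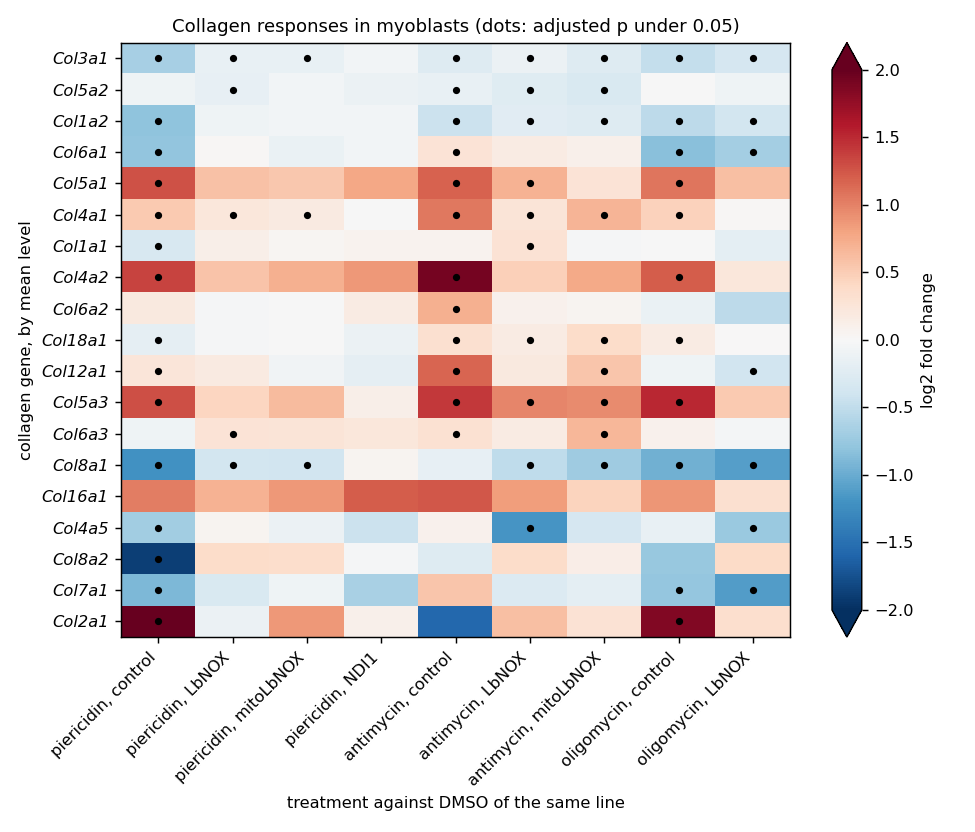
Log2 fold changes of the 19 tested collagens in myoblasts, each treatment against DMSO in the same line. Red is higher and blue is lower than DMSO, the color scale ends at 2 on either side, and dots mark an adjusted p under 0.05. The column of NDI1 with piericidin holds no dot, and Col3a1 and Col1a2 are blue and dotted under all 3 inhibitors in the control line.

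Other genes moved in these samples too. The summed fibroblast markers ran from 21.8 to 32.5 CPM with piericidin, 69.7 to 71.9 with antimycin and 32.9 to 41.2 with oligomycin, against 90.5 to 101 with DMSO, and the proliferation markers from 1115 to 1179.6, 803 to 846 and 1097 to 1133 CPM, against 1363 to 1389. Their part in the collagen results was not tested. Of 47 tested processing genes, 13 were higher and 19 lower with piericidin, 18 and 10 with antimycin, and 9 and 20 with oligomycin, where 61.7%, 63.2% and 50.8% of all genes were called. Timp3, an inhibitor of matrix proteases, rose with each inhibitor (2.12 ± 0.04, 2.91 ± 0.04 and 1.71 ± 0.04 on the log2 scale). The collagen receptor Ddr2 rose (1.90 ± 0.07, 1.25 ± 0.07 and 1.82 ± 0.07) while its relative Ddr1 fell (-1.62 ± 0.18, -0.83 ± 0.17 and -1.002 ± 0.17). Fkbp14, a prolyl isomerase that helps fold collagen, fell (-1.74 ± 0.11, -2.57 ± 0.12 and -1.83 ± 0.11). The collagen chaperone Serpinh1 rose with piericidin and antimycin (0.83 ± 0.05 and 0.23 ± 0.05) and fell with oligomycin (-0.22 ± 0.05).

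The DNA just before the start of 4 of these genes is printed to show how unlike the promoters of collagens are, for 2 genes that fell with piericidin (Col3a1 and Col8a1) and 2 that rose (Col5a1 and Col5a3). Each sequence is the 250 bases before the RefSeq start in GRCm38.p6, read 5′ to 3′ on the strand of the gene, from chr1:45311288-45311537 (plus strand), chr16:57754738-57754987 (minus), chr2:27886175-27886424 (plus) and chr9:20815068-20815317 (minus). Capitals mark the CCAAT box letters, the GC box letters GGGCGG and the TATA box letters TATAAA, each on either strand.
Col3a1: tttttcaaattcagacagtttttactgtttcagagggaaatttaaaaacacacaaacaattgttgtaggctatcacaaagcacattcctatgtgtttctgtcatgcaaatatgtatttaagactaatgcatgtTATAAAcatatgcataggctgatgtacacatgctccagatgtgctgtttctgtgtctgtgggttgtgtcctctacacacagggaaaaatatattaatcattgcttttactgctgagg
Col8a1: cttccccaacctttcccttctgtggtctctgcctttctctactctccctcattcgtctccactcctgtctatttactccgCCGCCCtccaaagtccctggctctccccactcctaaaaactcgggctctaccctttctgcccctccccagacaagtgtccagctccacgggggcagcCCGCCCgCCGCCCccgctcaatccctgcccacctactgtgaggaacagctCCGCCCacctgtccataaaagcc
Col5a1: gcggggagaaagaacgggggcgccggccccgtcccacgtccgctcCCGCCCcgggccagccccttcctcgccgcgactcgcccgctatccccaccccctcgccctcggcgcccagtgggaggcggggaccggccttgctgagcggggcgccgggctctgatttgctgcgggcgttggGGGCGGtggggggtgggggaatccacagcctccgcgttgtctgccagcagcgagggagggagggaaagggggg
Col5a3: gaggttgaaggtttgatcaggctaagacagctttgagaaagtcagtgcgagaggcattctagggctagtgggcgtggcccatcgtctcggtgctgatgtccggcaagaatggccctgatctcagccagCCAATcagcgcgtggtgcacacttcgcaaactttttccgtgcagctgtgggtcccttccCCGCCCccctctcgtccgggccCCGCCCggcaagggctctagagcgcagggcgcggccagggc
The Col3a1 window held 1 TATAAA and a GC content of 35.2%, and the GC content of the Col8a1, Col5a1 and Col5a3 windows was 60.8%, 76.4% and 62.8%. GGGCGG was found 4 times for Col8a1, 2 times for Col5a1, 2 times for Col5a3 and 0 times for Col3a1. The RefSeq table held promoters for 21 of the 26 collagens that passed, in 23 windows. Of these windows 15 held GGGCGG (65.2%, against 32.7% of all 32851 windows), 11 held CCAAT (47.8%, against 33.8%) and 3 held TATAAA (13.0%, against 12.4%). The letters TGATGNAA, part of the element bound by ATF4 with CEBP factors, were in 0 of the 23 windows and in 3.45% of all windows. These are matches of letters in 1 window per start, and overlapping matches were counted.

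In the LbNOX, mitoLbNOX and NDI1 lines fewer collagens were called with piericidin than in the control line. With piericidin 2 of 19 collagens were higher and 3 lower in LbNOX myoblasts, where 8.87% of all genes were called (5.01% higher and 3.86% lower), and 1 was higher and 2 lower in mitoLbNOX myoblasts, where 11.2% were called (6.37% higher and 4.82% lower). Without the samples numbered 1 or 2, the counts in LbNOX and mitoLbNOX were 0, and without those numbered 3 they were 2 and 1. In NDI1 myoblasts edgeR called 0 of 19 collagens, with 3 at an unadjusted p under 0.05, where 0.00835% of all genes were called. DESeq2's Wald test also called 0 in NDI1 myoblasts. The difference between lines was tested itself, as an interaction. Against the control line, 7 collagens had a higher and 2 a lower response to piericidin in LbNOX, where 44.3% of all genes were called, 7 and 1 in mitoLbNOX, where 42.8% were called, and 5 and 3 in NDI1, where 42.7% were called. The LbNOX count of 9 was 5 without the samples numbered 2, and the mitoLbNOX count of 8 was 5 without those numbered 1 or 2. These 3 interactions share the control samples.

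Col3a1 had 732, 774 and 686 CPM with DMSO and 663, 648 and 666 with piericidin in LbNOX myoblasts (log2 fold change -0.14 ± 0.04, adjusted p = 0.0285). In mitoLbNOX myoblasts it had 756, 773 and 709 with DMSO against 667, 662 and 683 with piericidin (log2 fold change -0.15 ± 0.04, adjusted p = 0.0165). In NDI1 myoblasts, with n = 2, it had 794 and 839 with DMSO against 794 and 762 with piericidin (log2 fold change -0.06 ± 0.05, edgeR adjusted p = 0.748). The treated and DMSO values did not overlap in LbNOX and mitoLbNOX, and in NDI1 they met at 794 CPM. Col4a1 had 232, 218 and 217 CPM with piericidin in LbNOX, 247, 227 and 214 in mitoLbNOX and 182 and 189 in NDI1, beside 298, 299 and 273 in the control line. Its DMSO values lay between 181 and 217 CPM in the 3 lines.

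With antimycin, the rise of Col4a1 and Col12a1 was smaller in LbNOX and mitoLbNOX than in the control line. In LbNOX myoblasts 5 collagens were higher and 5 lower, where 46.1% of all genes were called, and 5 and 4 in mitoLbNOX, where 47.7% were called. Under scaling by total counts alone the LbNOX split became 1 higher and 5 lower, and without the samples numbered 1 or 2 the LbNOX count was 6. Against the control line, 3 collagens had a higher and 4 a lower response to antimycin in LbNOX (51.5% of all genes called), and 1 and 3 in mitoLbNOX (31.7% called). The LbNOX interaction count of 7 was 4 without the samples numbered 1, and 4 with the position as a covariate, all control DMSO samples being outer. Col4a1 had 237, 235 and 209 CPM with antimycin in LbNOX and 324, 304 and 334 in mitoLbNOX, below the 437, 407 and 399 of the control line. The 3 lines did not overlap, and the log2 fold changes over DMSO were 0.26 ± 0.06 in LbNOX, 0.68 ± 0.06 in mitoLbNOX and 1.06 ± 0.06 in control. The LbNOX call was lost under scaling by total counts alone. Whether LbNOX and mitoLbNOX differ from each other was not tested. Col12a1 followed with 54.6, 57.9 and 52.9 CPM in LbNOX and 73.5, 71.2 and 78.0 in mitoLbNOX. In contrast, Col8a1 was lower with antimycin in both lines, at 18.0, 17.2 and 15.5 CPM in LbNOX and 16.5, 14.99 and 12.7 in mitoLbNOX (-0.51 ± 0.11 and -0.71 ± 0.11 on the log2 scale, adjusted p = 3.27e-04 and 4.62e-06).

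For oligomycin, 1 collagen differed in its response between LbNOX and control. In LbNOX myoblasts 0 of 19 collagens were higher and 7 lower with oligomycin, where 35.2% of all genes were called, and for the interaction with the control line 7.98% of all genes were called. Col3a1 had 577, 597 and 548 CPM with oligomycin in LbNOX (log2 fold change -0.34 ± 0.04, adjusted p = 1.71e-07) and Col8a1 had 11.5, 11.4 and 10.7 (log2 fold change -1.11 ± 0.12, adjusted p = 4.68e-09), both under all their DMSO values. The 1 collagen whose response differed was Col4a1, which had 199.97, 192 and 181 CPM with DMSO and 193, 196 and 186 with oligomycin in LbNOX.

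The lines also differed without inhibitor, which is given here as levels, with no test, for 2 genes chosen after their values were seen. Col18a1, the source of endostatin, had 163, 146 and 149.8 CPM in control DMSO myoblasts, 93.1, 86.0 and 85.3 in mitoLbNOX, 77.0, 73.2 and 75.7 in LbNOX and 49.9 and 61.5 in NDI1. No 2 lines overlapped. Col6a1 ran the other way, with 38.0, 36.8 and 34.9 CPM in control, 64.4, 60.9 and 55.7 in LbNOX, 57.2, 59.9 and 65.7 in mitoLbNOX and 87.0 and 93.1 in NDI1. LbNOX and mitoLbNOX overlapped, and control was lowest. Each transgene was carried by a single line, so line and transgene cannot be told apart.

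**Figure D4:**
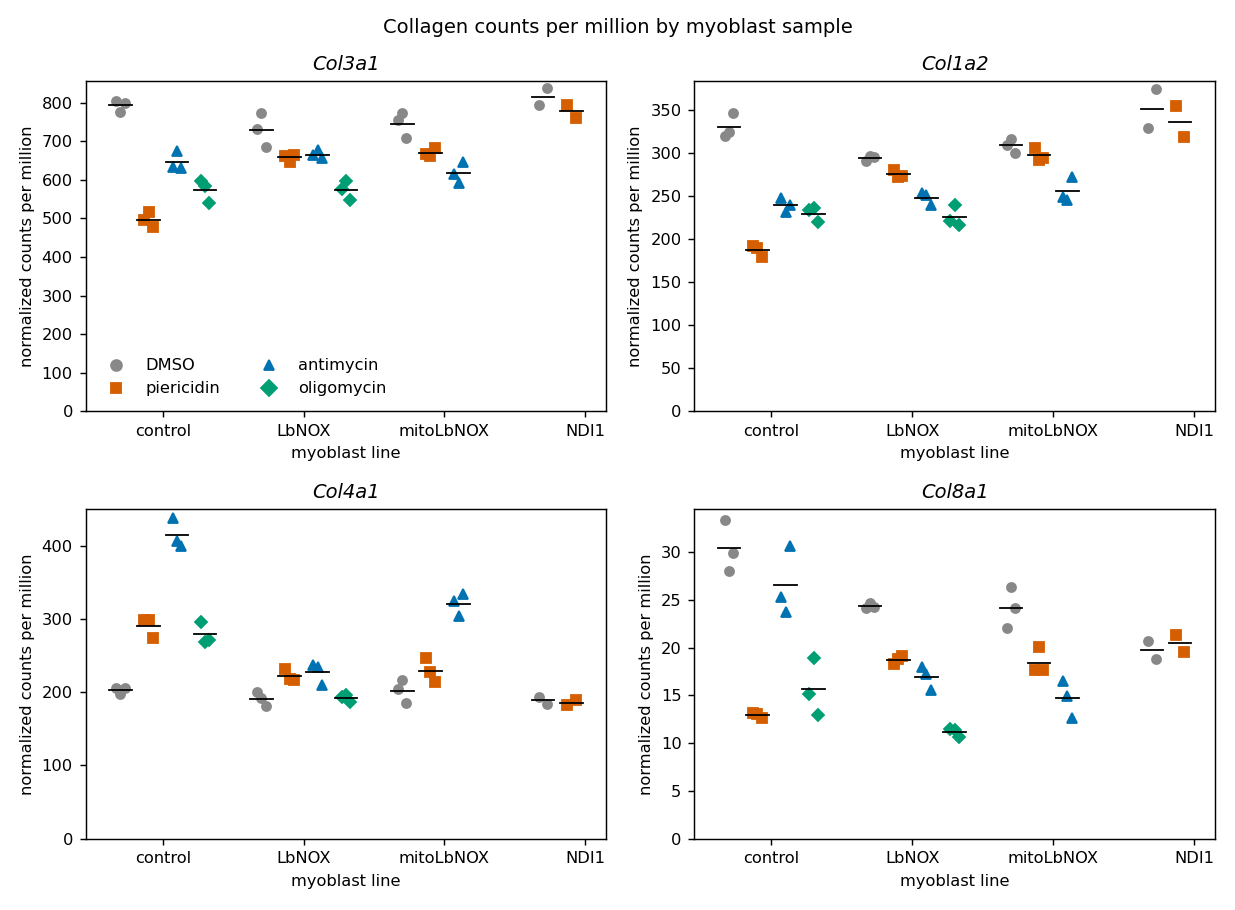
Normalized CPM of Col3a1, Col1a2, Col4a1 and Col8a1 in each myoblast sample, by line and treatment. Points are samples (n = 3, or 2 for NDI1), bars are means and each axis starts at 0. In the control line the piericidin points of Col3a1 (478 to 518) lie under the DMSO points (777 to 804), and in NDI1 the 2 groups meet.

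After 48 hr of chloramphenicol, 0 collagens were higher and 2 lower of 19 tested in control myoblasts, where 8.45% of all genes were called (3.62% lower). Col5a2 had 1336 and 1466 CPM with DMSO and 1013 and 1039 with chloramphenicol (log2 fold change -0.44 ± 0.05, adjusted p = 0.0014). Col8a1 had 32.2 and 28.3 with DMSO against 18.5 and 16.6 with chloramphenicol (log2 fold change -0.77 ± 0.12, adjusted p = 0.00508). Neither gene overlapped between groups of 2 samples. In LbNOX myoblasts edgeR called 0 of 19, with 4 at an unadjusted p under 0.05, where 0.931% of all genes were called, and DESeq2's Wald test called 1, as did edgeR without the first DMSO library. There Col8a1 had 25.7 and 27.4 CPM with DMSO against 24.8 and 24.4 with chloramphenicol (log2 fold change -0.11 ± 0.12, adjusted p = 0.732). Whether the lines differ in this response was not tested.

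In untransduced myotubes Col13a1 had the largest called change with each inhibitor, and the called changes of the abundant chains Col3a1, Col5a2, Col1a2 and Col6a1 were small. With piericidin 2 of 22 tested collagens were higher and 2 lower (8.99% of all genes called), with antimycin 2 and 2 (12.9% called), with oligomycin 5 and 3 (33.3% called) and with BAM15 5 and 4 (25.4% called). These comparisons share their DMSO samples. Without the samples numbered 2, 0 collagens were called with piericidin and 0 with antimycin, and without those numbered 3, 0 with piericidin. Col13a1 had 7.03, 6.58 and 8.54 CPM with DMSO, 3.85, 2.34 and 3.35 with piericidin, 3.32, 2.42 and 2.95 with antimycin, 0.475, 1.04 and 2.31 with oligomycin and 1.29, 0.992 and 1.30 with BAM15. Every treated value was below every DMSO value. The log2 fold changes were -1.21 ± 0.32, -1.34 ± 0.32, -2.54 ± 0.35 and -2.61 ± 0.35 (adjusted p = 0.0171, 0.00513, 3.27e-06 and 5.38e-06). The call with piericidin was lost when the samples with any 1 replicate number were left out (adjusted p = 0.0557, 0.225 and 0.0912), and that with antimycin without those numbered 2 (adjusted p = 0.107). When piericidin was added to oligomycin, Col13a1 had 2.69, 3.25 and 3.41 CPM, above 2.31 CPM, the highest value with oligomycin alone (log2 fold change 1.30 ± 0.36, adjusted p = 0.0115), a call lost without the samples numbered 1 or 2 (adjusted p = 0.142 and 0.175). These groups also differed in position. The samples with both drugs were all inner, while with oligomycin alone only the sample of 2.31 CPM was inner. For Col13a1 the outer minus inner difference described above was -0.17.

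Among the abundant chains, Col6a1 had 419, 424 and 402 CPM with DMSO, 441, 512 and 502 with piericidin, 526, 489 and 469 with antimycin, 515, 476 and 463 with oligomycin and 467, 502 and 469 with BAM15, and was called higher with each (log2 fold changes 0.24 ± 0.06, 0.26 ± 0.06, 0.22 ± 0.06 and 0.22 ± 0.06). No treated value fell into the DMSO range. Without the samples numbered 2, the calls of Col6a1 with piericidin, antimycin and BAM15 were lost (adjusted p = 0.165, 0.0515 and 0.105), as was the piericidin call without those numbered 3 (adjusted p = 0.0942). Col3a1 rose with BAM15, at 5086, 5113 and 4843 CPM (log2 fold change 0.27 ± 0.04, adjusted p = 5.45e-05), and Col12a1 with it, from 102, 93.7 and 99.5 to 137, 136 and 116 CPM (log2 fold change 0.41 ± 0.07, adjusted p = 8.01e-05). Col18a1 fell with piericidin and antimycin, to 133, 129.7 and 127 CPM with the first and 136, 124 and 118 with the second, from 150.2, 160.5 and 166 with DMSO (-0.28 ± 0.06 and -0.33 ± 0.06 on the log2 scale), calls that were lost without the samples numbered 2 (adjusted p = 0.143 and 0.0542), and for piericidin also without those numbered 3 (adjusted p = 0.0949). Col25a1 rose with oligomycin to 22.7, 21.1 and 25.4 CPM (log2 fold change 0.60 ± 0.18, adjusted p = 0.0124), a call lost without the samples numbered 1 (0.45, adjusted p = 0.0913).

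Col5a1 was called lower with oligomycin and BAM15, at 157, 179.9 and 268 CPM with the first and 249, 171 and 176 with the second against 306, 345 and 331 with DMSO, but the highest value of each came from its inner sample and both lower values from outer ones. The log2 fold changes were -0.70 ± 0.21 and -0.71 ± 0.21, and with the position as a covariate -0.33 and -0.32 (adjusted p = 0.0282 and 0.045). The oligomycin call of Col5a1 was lost without the samples numbered 1 or 2 (adjusted p = 0.086 and 0.218), and its BAM15 call without those numbered 2 (adjusted p = 0.253). The oligomycin calls of Col5a3, Col3a1, Col1a2 and Col4a1 were lost with that covariate (adjusted p = 0.253, 0.129, 0.16 and 0.127). Leaving out the samples numbered 1 lost 6 of the 8 oligomycin calls, and leaving out those numbered 2 lost 6 of the 9 BAM15 calls.

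At 5% oxygen Col5a2, Col12a1 and Col3a1 rose, while Col18a1, Col6a1 and Col6a2 were among the collagens that fell. Of 22 tested collagens 3 were higher and 8 lower, where 22.1% of all genes were called (12.3% higher and 9.78% lower). The median log2 fold change was -0.20 over the tested collagens and 0.02 over all genes. Without the samples numbered 3, 7 collagens were called. Col5a2 had 962, 967 and 985 CPM with DMSO at normal oxygen and 1269, 1242 and 1171 at 5% oxygen (log2 fold change 0.36 ± 0.04, adjusted p = 1.69e-07). Col12a1 had 151, 150.1 and 146 (log2 fold change 0.62 ± 0.07, adjusted p = 1.35e-07) and Col3a1 5069, 4917 and 4883 (log2 fold change 0.26 ± 0.04, adjusted p = 5.37e-05). All values of these 3 genes were above those of the DMSO samples.

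Lower at 5% oxygen was Col18a1, at 94.2, 97.0 and 89.0 CPM (log2 fold change -0.75 ± 0.06, adjusted p = 1.12e-09). Col6a2 fell from 263, 277 and 268 to 159, 176 and 162 CPM (log2 fold change -0.68 ± 0.06, adjusted p = 4.21e-09) and Col6a1 to 351, 337 and 323 (log2 fold change -0.28 ± 0.06, adjusted p = 4.60e-04). Col8a2, of the same network-forming class as Col8a1, fell from 8.28, 7.68 and 8.64 to 2.09, 3.59 and 1.82 CPM (log2 fold change -1.69 ± 0.26, adjusted p = 2.63e-05). These groups did not overlap. All samples of both groups were at inner positions, so the position as a covariate could not move the value of Col6a2 (-0.68). Col23a1 fell to 2.92, 4.53 and 3.21 CPM (log2 fold change -0.85 ± 0.26, adjusted p = 0.0203), a call lost without the samples numbered 1 or 3 (adjusted p = 0.13 and 0.192). The summed proliferation markers were 23.1 to 28.6 CPM at 5% oxygen and 136 to 170.2 with DMSO, and their part in these values was not tested.

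Of 48 tested processing genes, 12 were higher and 13 lower at 5% oxygen, where 12.3% of all genes were called higher and 9.78% lower. Of the 5 tested genes of the prolyl 3-hydroxylase complex, 1 was higher and 1 lower, P3h4 (0.19 ± 0.06) and the prolyl isomerase Ppib (-0.21 ± 0.04, log2 fold changes). Of the 4 prolyl 4-hydroxylase subunits 3 rose. P4ha1 went from 319, 357 and 415 to 772, 798 and 782 CPM (log2 fold change 1.13 ± 0.06, adjusted p = 4.78e-13) and P4ha2 from 90.5, 101 and 113 to 360.3, 329 and 351 (log2 fold change 1.79 ± 0.06, adjusted p = 1.69e-16). The third, P4hb, had a log2 fold change of 0.44 ± 0.03. All 3 Plod lysyl hydroxylases rose (Plod1 1.30 ± 0.06, Plod2 0.89 ± 0.21 and Plod3 0.39 ± 0.06 on the log2 scale). Lox, which crosslinks fibrils, went from 709, 769 and 806 to 1796, 1663 and 1749 CPM (log2 fold change 1.21 ± 0.06, adjusted p = 1.90e-14). Of the other crosslinking genes 1 rose and 1 fell, the latter being Loxl3 (-0.28 ± 0.08). Of the 6 tested fibril partners 1 rose, Fn1 (0.24 ± 0.06), and 3 fell, among them Postn (-0.46 ± 0.06) and Sparc (-0.10 ± 0.04). Of the 5 genes of degradation and its inhibitors 1 rose, Timp3 (0.21 ± 0.05), and 3 fell, among them the inhibitors Timp1 (-0.17 ± 0.04) and Timp2 (-0.40 ± 0.09). Of the 4 folding chaperones 0 rose and 2 fell, Fkbp7 (-0.58 ± 0.10) and Fkbp14 (-0.31 ± 0.10). Under oligomycin at normal oxygen P4ha1, P4ha2, Plod1, Plod2 and Lox were lower (log2 fold changes -0.54 ± 0.06, -0.55 ± 0.07, -0.45 ± 0.06, -1.10 ± 0.23 and -0.36 ± 0.06), and Plod3 did not pass the test (0.08 ± 0.06, adjusted p = 0.346). In that comparison 2 of 48 processing genes were higher and 21 lower, where 16.9% of all genes were called higher and 16.4% lower. Both comparisons share the DMSO samples.

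**Figure D5:**
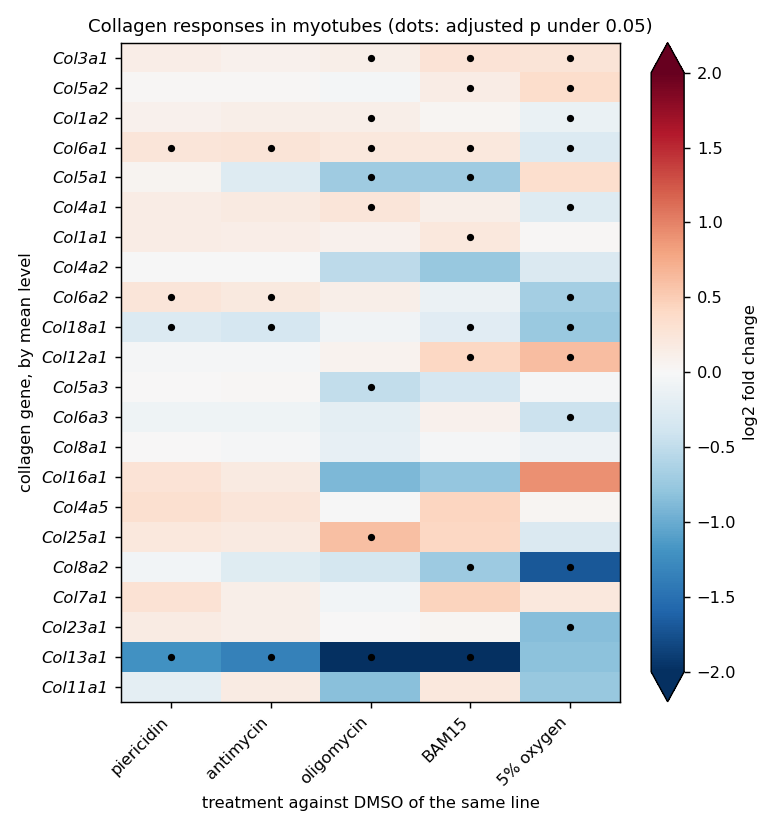
Log2 fold changes of the 22 tested collagens in untransduced myotubes, each treatment against DMSO. Red is higher and blue is lower than DMSO, the color scale ends at 2 on either side, and dots mark an adjusted p under 0.05. Col13a1 is blue and dotted with the 4 inhibitors, and the column of 5% oxygen holds 3 red and 8 blue dotted cells.

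Tested as an interaction, the response differed between myotubes and control myoblasts for 8 collagens upward and 3 downward with piericidin (46.5% of all genes called), 3 and 6 with antimycin (47.9% called) and 4 and 4 with oligomycin (29% called). The piericidin count of 11 was 6 without the samples numbered 1 and 7 without those numbered 2, and the antimycin count of 9 was 5 with the position as a covariate. Myotube DMSO samples were inner and myoblast DMSO samples outer, so the interactions of Col4a2, Col5a1 and Col5a3 carry the position as well. With the position as a covariate, the antimycin interactions of Col4a2, Col5a1 and Col5a3 were no longer called (adjusted p = 0.191, 0.107 and 0.174), nor were that of Col4a2 with oligomycin (adjusted p = 0.269) and that of Col5a3 with piericidin (adjusted p = 0.075). Those of Col5a1 with piericidin and oligomycin and of Col5a3 with oligomycin remained past the threshold (adjusted p = 0.0235, 0.0156 and 0.0298). In post-mitotic cells of day 1, edgeR called 0 of 17 collagens with piericidin, with 3 at an unadjusted p under 0.05 (2.75% of all genes called) and 0 by DESeq2's Wald test, and with oligomycin 0 were higher and 2 lower (20.7% called). The 2 were Col8a1, with 22.4, 24.2 and 27.8 CPM against 42.0, 39.8 and 37.003 (log2 fold change -0.65 ± 0.10, adjusted p = 6.36e-04), and Col5a2, with 813, 776 and 786 against 988, 916 and 913 (log2 fold change -0.23 ± 0.04, adjusted p = 0.00301). Neither overlapped. Col3a1 at day 1 had log2 fold changes of -0.02 ± 0.03 with piericidin and -0.02 ± 0.03 with oligomycin (adjusted p = 0.825 and 0.736).

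In myotubes transduced with adenovirus, edgeR called 0 of 25 collagens with oligomycin under GFP, with 1 at an unadjusted p under 0.05 (25.9% of all genes called), and 0 by DESeq2's Wald test. Under LbNOX 0 were higher and 2 lower (32% called). One was Col5a2 (log2 fold change -0.12 ± 0.03). The other was Col17a1, which passed the filter in 1 condition of the series, the LbNOX myotubes with DMSO, so its direction was fixed by the filter. Col13a1 had 3.68, 4.01 and 3.20 CPM with DMSO and 1.37, 2.06 and 1.63 with oligomycin under LbNOX, without overlap, though it did not pass the test (log2 fold change -1.12 ± 0.42, adjusted p = 0.0535). Under GFP, with n = 2, it had 1.65 and 4.53 CPM with DMSO against 1.62 and 2.00 with oligomycin, which overlapped (log2 fold change -0.74 ± 0.51, edgeR adjusted p = 0.333). Between LbNOX and GFP myotubes with DMSO, edgeR called 0 of 25 collagens, with 4 at an unadjusted p under 0.05 (0.0242% of all genes called), and 0 by DESeq2's Wald test. In untransduced myotubes, piericidin added to oligomycin gave 1 collagen higher and 4 lower of 22 (20.9% of all genes called) and BAM15 added to it 1 higher and 2 lower (26.1% called). The first count was 1 without the samples numbered 1 or 2 and 11 without those numbered 3, and the second was 5, 1 and 7. With oligomycin at 5% oxygen 0 were higher and 1 lower of 22 (4.26% called), and 0 were called without the samples numbered 1 or 2. Without the samples numbered 2 the oligomycin count was 2 under GFP and 1 under LbNOX, and without those numbered 3 it was 1 under LbNOX.

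Over the 35 condition means, the genes whose levels followed Col1a1 most closely were Mustn1 (Spearman rho 0.937), Cdh13 (0.931) and Ccdc88c (0.929) of 13356 genes. Among collagens these were Col5a3 (0.887), Col8a1 (0.866) and Col3a1 (0.857). The conditions share cell states, so this likeness is a description of mostly the same step from myoblasts to myotubes.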

How the data were processed

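RNA was measured in 96 samples by a Smart-seq2 type protocol that does not keep strand. The submitters' processing notes name bcl2fastq 2.20.0.422. Per the study's methods, the authors pseudoaligned reads with kallisto 0.44 with bias correction to the mouse transcriptome (GRCm38.p6) and the transgenes, and summed the estimated counts per gene over both flow cells. The deposited file holds these expected (estimated) counts as whole numbers, without normalization.

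The 44 collagens, the 61 processing genes (60 of them in the table) and the marker lists were chosen with earlier results of these data known. Samples were grouped by their labels and analyzed in 6 fits giving 36 comparisons: cell states with control myoblasts, myoblasts at 10 hr, chloramphenicol at 48 hr, untransduced myotubes, transduced myotubes and day 1. In each fit a gene was kept if all replicates of 1 condition or more reached 16 counts. Counts were scaled by TMM and tested with the quasi-likelihood test of edgeR 4.0.16 (R 4.3.3, limma 3.58.1), two-sided, with Benjamini-Hochberg adjustment over all genes of the fit, and called at an adjusted p under 0.05. CPM values used TMM factors over all 96 samples, so a fold of CPM can differ slightly from the fitted fold change. Levels per kb used the longest protein-coding transcript of GENCODE M21, whose coordinates are given. The code was tested on simulated data.

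Genes with values were taken from the 8 collagens of highest mean CPM, not each in every comparison, and from up to 5 in each direction per comparison with the largest called fold changes whose groups did not overlap. Up to 4 processing genes per role were named by highest mean CPM. A few others were named after their values were seen, among them Col18a1 and Col6a1 in the lines without inhibitor, and Col12a1, Col8a1 and Col13a1 where they were not called.

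Alternatives were DESeq2 1.42.0 size factors, DESeq2's Wald test, total counts only, no count filter, a replicate block, a plate position covariate and leaving out each replicate number (for chloramphenicol, each library). Leaving out the 4 corner positions was chosen after seeing the data. Among 87 replicate pairs, 0 were identical. Without strand, reads from bases shared with a gene on the other strand cannot be told apart. Among collagens that passed the filter this touches 22 bases of Col4a1 and Col4a2, 43 of Col4a2 with Gm15419, 99 and 113 of Col5a1 with 2810430I11Rik and Gm13372, and 16 of Col22a1 with Gm16308. Col3a1 shares 141 bases with Gm47302 and Col7a1 36 with Mir711 on the same strand.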

Additional observations from a re-analysis of the deposited data

Results flagged for a closer look

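Collagens were among the genes whose response to an inhibitor differed between groups, by a test of the interaction in edgeR, in 9 comparisons. The share of all genes called, given beside each count, was of similar size or larger, so the counts are not particular to collagens. Values are differences of log2 fold changes, and all comparisons with control myoblasts share the control DMSO samples.

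Between myotubes and control myoblasts, 11 of 23 tested collagens differed in their response to piericidin (46.5% of all genes called, with counts of 6 and 7 without the samples numbered 1 and 2), among them Col1a2 (0.94), Col3a1 (0.84) and Col6a1 (1.08), all with a higher fold change in myotubes. For oligomycin 8 of 23 differed (29% called), among them the same genes, Col1a2 (0.64), Col3a1 (0.59) and Col6a1 (1.05). For antimycin 9 of 23 differed (47.9% called, with a count of 5 with the plate position as a covariate), and there Col1a2 was higher in myotubes (0.60) while Col4a1 (-0.84) and Col18a1 (-0.61) were lower. The states also differed in transduction, doxycycline, serum and position code.

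Between LbNOX and control myoblasts, 9 of 19 tested collagens differed in their response to piericidin (44.3% of all genes called, with a count of 5 without the samples numbered 2), among them Col1a2 (0.71), Col3a1 (0.51) and Col6a1 (0.82). For antimycin 7 of 19 differed (51.5% called, with a count of 4 without the samples numbered 1 or with the plate position as a covariate), with lower responses in LbNOX of Col4a1 (-0.80), Col12a1 (-0.96) and Col4a5 (-1.27). For oligomycin 1 of 19 differed (7.98% called), Col4a1 (-0.44).

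Between mitoLbNOX and control myoblasts, 8 of 19 collagens differed in their response to piericidin (42.8% of all genes called, with a count of 5 without the samples numbered 1 or 2), among them Col1a2 (0.75), Col3a1 (0.51) and Col8a1 (0.83). For antimycin 4 of 19 differed (31.7% called), among them Col4a1 (-0.38), Col12a1 (-0.61) and Col8a1 (-0.54). Between NDI1 and control myoblasts, 8 of 19 differed in their response to piericidin (42.7% called), among them Col1a2 (0.75), Col3a1 (0.60) and Col8a1 (1.27).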

How the results depend on the processing

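Of 355 values of the 36 counts of called collagens under alternatives, 297 stayed within 1.5 times the count in the text and 58 moved further, and in the latter the cause was not tested. With the plate position as a covariate the count became 5 for antimycin in myotubes against myoblasts (from 9), 4 for antimycin in LbNOX against control (from 7), 4 for oligomycin in myotubes (from 8), 3 for piericidin added to oligomycin (from 5) and 4 for oligomycin in LbNOX myotubes (from 2). With total counts only it became 6 for antimycin in LbNOX (from 10), 0 for oligomycin at 5% oxygen (from 1), 1 for oligomycin in GFP myotubes (from 0) and 5 for oligomycin at day 1 (from 2), and Col6a1 with antimycin in control myoblasts turned to a log2 fold change of -0.027 (adjusted p = 0.831). DESeq2's Wald test gave 1 for chloramphenicol in LbNOX (from 0). With no count filter, which adds collagens to those tested, it became 12 for oligomycin in LbNOX myoblasts (from 7), 5 for piericidin in mitoLbNOX (from 3), 3 for piericidin in NDI1 (from 0), 4 for oligomycin in LbNOX against control (from 1), 7 for antimycin in mitoLbNOX against control (from 4), 5 and 5 for chloramphenicol in control and LbNOX (from 2 and 0), 9 for piericidin and 5 for BAM15 added to oligomycin (from 5 and 3), 4 for oligomycin at 5% oxygen (from 1), 2 for oligomycin in GFP and 4 in LbNOX myotubes (from 0 and 2), 1 for LbNOX against GFP (from 0), and 2 and 5 for piericidin and oligomycin at day 1 (from 0 and 2). DESeq2 size factors and leaving out the corner positions moved 0 counts that far.

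Leaving out a replicate number removed it from every group of a fit, except for chloramphenicol, where 1 library at a time was left out, and a group left with 1 sample was assumed to vary like the others. The counts then ran from 6 to 7 for antimycin in LbNOX, 4 to 6 for antimycin in LbNOX against control, 0 to 4 for antimycin in myotubes, 1 to 7 for BAM15 added to oligomycin, 3 to 9 for BAM15 and 0 to 1 for chloramphenicol in LbNOX. They ran from 7 to 10 for 5% oxygen, 0 to 2 for oligomycin in GFP myotubes, 1 to 2 for oligomycin in LbNOX myotubes, 4 to 9 for oligomycin in myotubes, 0 to 1 for oligomycin at 5% oxygen and 1 to 11 for piericidin added to oligomycin. They ran from 0 to 2 for piericidin in LbNOX, 5 to 10 for piericidin in LbNOX against control, 0 to 1 for piericidin in mitoLbNOX, 5 to 8 for piericidin in mitoLbNOX against control, 0 to 3 for piericidin in myotubes and 6 to 8 for piericidin in myotubes against myoblasts.

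Same-numbered samples did not deviate together on average, with mean correlations from -0.0413 to 0.0537 over the 6 fits. This does not settle whether same-numbered samples shared a culture or a day. A replicate block moved 0 of the 36 counts by over 1.5 times. Under it the calls of Col7a1 with oligomycin in control myoblasts (-0.78, adjusted p = 0.052) and of Col1a2 with oligomycin in myotubes (0.11, adjusted p = 0.053) were lost.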
